A study of Drosophila melanogaster with 12 samples.

Results

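The genes that encode translation initiation factors (eIF) and elongation factors (eEF) were followed in the ovaries of Drosophila melanogaster, across the input and polysome RNA of 3 genotypes. Members were the genes whose FlyBase symbol begins with eIF or eEF, without eIF6 and with eEF1alpha1 read under its older identifier. This gave 50 genes of the 17023 identifiers in the files, namely 43 initiation and 7 elongation factor genes, of which 9 are germline or testis paralogs of a broadly used factor. NosGAL4, a driver active in germ cells, was used in every genotype. In the first genotype it drove UAS-tkv, a BMP receptor, so that ovaries are rich in germline stem cells (GSCs). In the second it drove bam RNAi, which enriches for their daughters, the cystoblasts (CBs), and in the third aramis RNAi, against the helicase gene ais. Only the RNAi genotypes carried UAS-Dicer2, and its effect cannot be told apart from the step between UAS-tkv and either RNAi line. Ovaries were dissected 1 to 3 days after eclosion, and each genotype gave 2 input and 2 polysome libraries, 12 in all. Input was a reserved part of the polysome lysate taken with TRIzol, and polysome RNA was extracted from gradient fractions with acid phenol-chloroform. Polysome and input therefore differ in extraction as well as in ribosome load. The labels do not say whether replicates came from separate crosses, and p-values therefore reflect only how far these libraries spread.

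Initiation factors bring a ribosome to an mRNA in a fixed order. The cap-binding protein eIF4E, the scaffold eIF4G and the helicase eIF4A open the start of the mRNA, eIF2 carries the initiator tRNA and is recharged with GTP by eIF2B, and the many-subunit eIF3 holds the small ribosomal subunit while eIF1, eIF1A and eIF5 govern the choice of start codon. In elongation eEF1alpha delivers charged tRNAs, the exchange complex that holds eEF1beta, eEF1gamma and eEF1delta recharges it, and eEF2 moves the ribosome along by a codon. In Drosophila several of these factors have paralogs that are best known from the male germline. Among them, eIF4E3 and eIF4G2 are needed for meiosis and sperm formation in the testis.

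The libraries held 3131667 to 15039925 counts, and replicates of a group correlated across genes at a Pearson r of 0.873 to 0.968 on log2 CPM (counts scaled to library size). Genes are not independent replicates. The targeted gene ais stood at 8.499 and 11.2 CPM in aramis RNAi input, below the 20.7 to 34.2 CPM of the 4 control inputs. A pair of polysome libraries stood apart from each other. In the polysomes of bam RNAi, ribosomal protein genes held 33.9% of replicate 1 and 9.54% of replicate 2. The UAS-tkv polysomes had 21.6% and 21.9%, and those of aramis RNAi 5.17% and 9.17%. Germline markers (7 genes found) summed to 576 to 612 TPM (counts scaled to exon length and then to the library) in UAS-tkv input, 394 to 897 in bam RNAi input and 74.1 to 87.4 in aramis RNAi input, with none of the 7 at 0 in these groups. Hemocyte markers (6 genes) moved the other way, from 192 to 471 TPM in UAS-tkv and 457 to 788 in bam RNAi to 1257 to 1296 in aramis RNAi input, and 7 muscle sheath markers summed to 5364 to 12500, 11580 to 15570 and 24240 to 24780 TPM. Markers of follicle, escort and cap cells (8 genes) did not rise in this way, at 305 to 328, 306 to 571 and 323 to 324 TPM in the same order. Of 15 testis markers 10 were at 0 in both UAS-tkv inputs, and the sum of all 15 stayed between 4.29 and 20.7 TPM in every library.

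The factors took 4.20% to 4.93% of the counts in the inputs and 2.42% to 4.47% in the polysomes. Levels between genes were compared in TPM, which divides counts by exon length. Elongation factors led. The GTPase eEF1alpha1 was the highest member in every library, at a mean of 9546 TPM over the 12 libraries, and alone took 28.6% to 48.1% of all factor counts. Its inputs lay close together in TPM, at 14110 and 14470 for UAS-tkv, 12260 and 11040 for bam RNAi and 13130 and 13690 for aramis RNAi. In CPM, the scale of the tests, they lay further apart. They stood there at 19440 and 19050, 14780 and 18920, and 25220 and 25480 in the same order. The translocase eEF2 followed at a mean of 3266 TPM, then the exchange factor subunits eEF1gamma at 1884 and eEF1beta at 1575. The paralog eEF1alpha2 stood at a mean of 4.28 TPM, 0.0196% to 0.0731% of the eEF1alpha pool of the inputs. Mapping rules for reads shared between these near copies were not given in the sources used here, so that share is uncertain. The selenocysteine factor eEFSec averaged 13.8 TPM.

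Among initiation factors the helicase eIF4A was the most abundant at a mean of 1364 TPM, followed by the start codon factor eIF1 at 1102 TPM. The 13 core eIF3 subunits (a to m, without the paralogs) formed a band between 162 TPM for the large scaffold subunit eIF3a and 596 TPM for eIF3e, and within an input library the highest subunit was 2.52 to 4.73 times the lowest. The cap-binding protein eIF4E1 averaged 356 TPM and made up 83.4% to 93.2% of the eIF4E family in the inputs. The eIF2 complex was led by eIF2beta at 324 TPM, while its exchange factor eIF2B was lower, with eIF2Balpha at 101 TPM the highest of its 5 subunits. The scaffold eIF4G1 averaged 71.8 TPM and eIF4H1, a relative of the mammalian stimulator of eIF4A, 62.4 TPM. The noncanonical initiator tRNA factor eIF2A averaged 235 TPM. The eIF4A cofactor eIF4B was the lowest member with counts enough for a test, at 1.68 TPM. Its own libraries ranged so widely, from 0 in a bam RNAi polysome library to 12.6 CPM in bam RNAi input replicate 2, that its differences carry standard errors of 1.55 or more on the log2 scale.

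**Figure D1:**
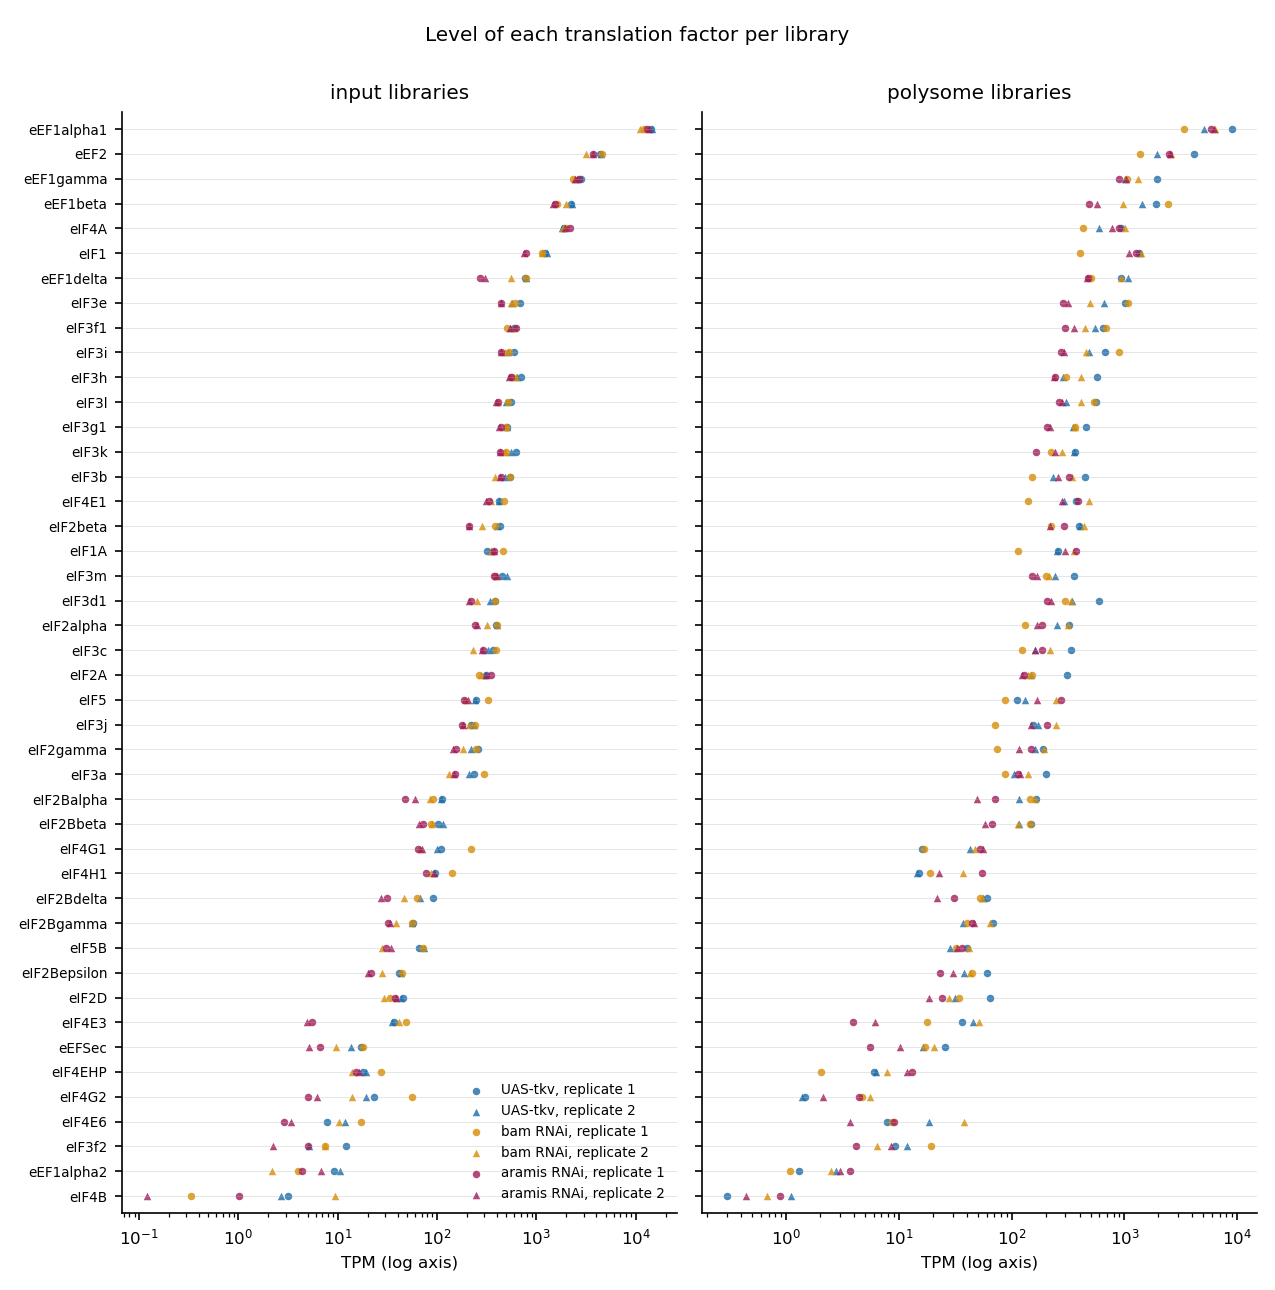
TPM of the 44 factors tested (rows, ordered by mean) in the input libraries (left) and polysome libraries (right), on log axes, with colours for genotype and symbols for replicate. eEF1alpha1 is the topmost in every library, eEF1delta, eIF4E3 and eIF4G2 in aramis RNAi input lie left of the control inputs, and a value of 0 (eIF4B in bam RNAi polysome replicate 1) is not drawn.

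The paralogs were low or absent. Of the 50 members 43 had counts in every library and 44 passed the filter on low counts, while 6 did not and were not tested. No count fell on eIF3d2 or eIF4E4, which with a floor of 3 counts in the 111243830 of all libraries allows at most 0.027 CPM. For eIF3g2 there was 1 count, for eIF4H2 6, for eIF4E5 19 in 7 libraries and for eIF4E7 48 in 8 libraries. Such floors cover counting error only, not reads that the annotation or the counting may have missed. The paralogs that passed were eIF4E3 at a mean of 27.7 TPM, eIF4G2 at 12, eIF4E6 at 11.6 and eIF3f2 at 8.25 TPM. Each was well below its broadly used counterpart.

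In input, aramis RNAi was compared with each control to ask which factor mRNAs differ in level when aramis is lowered. The comparisons share the aramis RNAi libraries. Counts were tested with edgeR's quasi-likelihood test, and p-values were adjusted by Benjamini-Hochberg over all 9745 genes tested and called under 0.05. Each call by this test was of a factor lower in aramis RNAi. Against UAS-tkv no factor rose and 2 of 44 fell, where 10.1% of all genes were called higher and 8.73% lower. That count depended on the fit. DESeq2 called 2 factors higher and 3 lower (27.4% of all genes called in either direction), edgeR on the 4 libraries of the pair alone called 5 higher and 8 lower (48.0%), and with the replicate number as a block 5 higher and 6 lower (42.8%). Against bam RNAi no factor rose and 2 of 44 fell, where 0.944% of all genes were called higher and 2.44% lower, and DESeq2 called 3 lower (14.0% of all genes called). The median log2 difference of the 44 factors was -0.05 against UAS-tkv and 0.04 against bam RNAi, beside medians of all genes of -0.04 and -0.03.

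The cap-binding paralog eIF4E3 (FBgn0265089, protein-coding, dm6 chromosome 3L, 8229224 to 8230568) fell against both controls. Its inputs stood at 21.4 and 19.7 CPM in UAS-tkv and at 24.6 and 29.9 CPM in bam RNAi. In aramis RNAi they stood at 4.49 and 3.86 CPM, below every control library. The gene was 4.90-fold lower than in UAS-tkv (log2 -2.29 ± 0.42, SE, n = 2 and 2, edgeR adjusted p = 0.00582) and 6.48-fold lower than in bam RNAi (-2.70 ± 0.42, adjusted p = 0.00924). In polysomes aramis RNAi was again the lowest, at 2.64 and 4.95 CPM beside 26.1 and 39.1 for UAS-tkv and 20.4 and 28.3 for bam RNAi. Within a library the share of eIF4E3 in the TPM of the eIF4E family does not depend on how libraries are scaled. It was 7.57% and 7.23% in UAS-tkv input, 8.58% and 9.91% in bam RNAi input and 1.56% and 1.45% in aramis RNAi input, so the groups did not overlap. The main family member eIF4E1 differed little, by 0.10 ± 0.30 and 0.07 ± 0.30 on the log2 scale. The germline marker sum fell over the same libraries, as given above, and its part in the change of eIF4E3 was not tested. In bulk RNA of whole ovaries, fewer germ cells and less RNA per germ cell cannot be told apart. A different mix of cells likewise limits the input differences of the other factors given below. Leaving out either input library of aramis RNAi ended both calls, with adjusted p of up to 0.0636 against UAS-tkv and 0.188 against bam RNAi.

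The scaffold paralog eIF4G2 (FBgn0260634, dm6 chromosome 3R, 23808285 to 23819237) fell against bam RNAi, by 2.11 ± 0.46 on the log2 scale or 4.33-fold (edgeR adjusted p = 0.0387). Its inputs stood at 252 and 88.0 CPM for bam RNAi, 119 and 93.6 CPM for UAS-tkv and 35.8 and 42.8 CPM for aramis RNAi. The aramis RNAi libraries were below all controls, and the bam RNAi replicates lay far apart. Without bam RNAi input replicate 1 the log2 difference was -1.22 and the adjusted p rose to 0.337. The call was also lost without either aramis RNAi input library or aramis RNAi polysome replicate 2. Against UAS-tkv the difference of -1.44 ± 0.46 had an edgeR adjusted p of 0.0521 and a DESeq2 adjusted p of 0.0206. As a share of eIF4G1 and eIF4G2 together, eIF4G2 made up 17.7% and 16.1% of TPM in UAS-tkv input, 20.3% and 17.2% in bam RNAi input and 7.34% and 8.18% in aramis RNAi input. The exons of eIF4G2 overlap the gene CG33111 on the same strand over 8.56% of their length. The broadly used scaffold eIF4G1 differed by -0.16 ± 0.49 and -0.60 ± 0.49. The other tested paralogs had values of -1.16 ± 0.79 and -1.69 ± 0.78 for eIF4E6 and -0.75 ± 0.92 and -0.64 ± 0.92 for eIF3f2, none past the threshold.

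The third factor was a broadly used one. The exchange factor subunit eEF1delta (FBgn0032198, dm6 chromosome 2L, 10232507 to 10234450) stood at 398 and 388 CPM in UAS-tkv input, 360.4 and 355 in bam RNAi input and 196 and 212 in aramis RNAi input, again with no overlap. It fell by 0.95 ± 0.26 on the log2 scale, or 1.93-fold, against UAS-tkv (edgeR adjusted p = 0.0288), and its difference of -0.81 ± 0.26 from bam RNAi had an edgeR adjusted p of 0.105 and a DESeq2 adjusted p of 0.0296. Its partners in the exchange complex did not share this pattern. The log2 differences from UAS-tkv were -0.09 ± 0.59 for eEF1beta and 0.43 ± 0.43 for eEF1gamma. The ratio of eEF1delta to eEF1gamma in TPM was 0.270 and 0.307 in UAS-tkv input, 0.339 and 0.224 in bam RNAi input and 0.0998 and 0.122 in aramis RNAi input. The call ended without any 1 of the 4 input libraries of the pair or without aramis RNAi polysome replicate 2, with adjusted p of up to 0.242, and without a filter on low counts (0.0871).

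**Figure D2:**
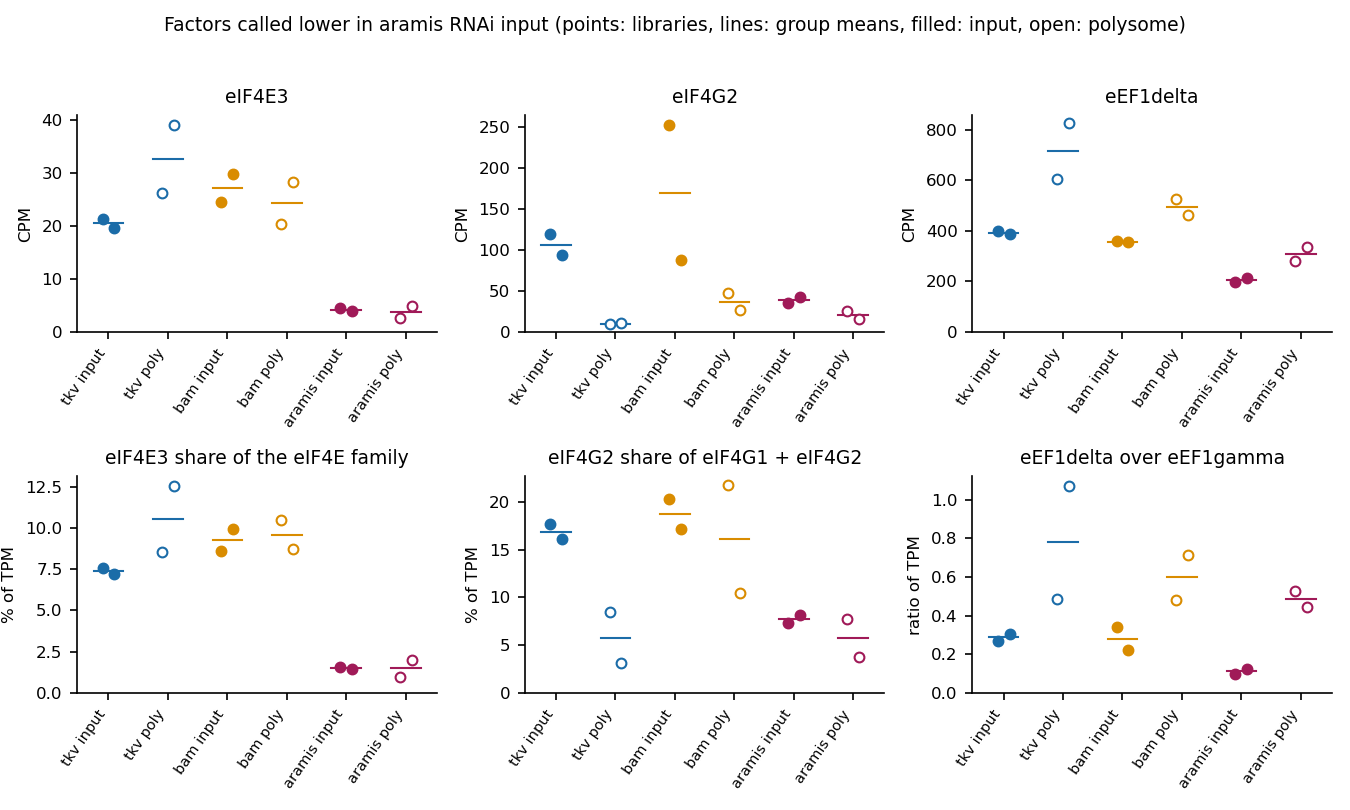
CPM of eIF4E3, eIF4G2 and eEF1delta (top) and their share or ratio in TPM within a library (bottom) in the 6 groups, with points for libraries (filled for input, open for polysome) and lines for group means. In input the aramis RNAi points lie below all UAS-tkv and bam RNAi points in each panel, with 4.49 and 3.86 CPM for eIF4E3 at the lowest.

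The other classes held no call in input. The 5 subunits of eIF2B, the exchange factor of eIF2, all had negative differences from UAS-tkv, from -0.15 for eIF2Bbeta to -0.94 ± 0.33 for eIF2Bdelta, with a median of -0.52, under each of the 4 scalings tried. Against bam RNAi 4 of 5 were negative, with a median of -0.33, and all 5 were when libraries were scaled by total counts. The 13 core eIF3 subunits lay within a narrow range, from -0.28 to 0.53 against UAS-tkv (10 above 0) and from -0.14 to 0.43 against bam RNAi (10 above 0). The highest values against UAS-tkv were 0.66 ± 0.27 for the scanning factor eIF1A, 0.65 ± 0.36 for eIF4A and 0.59 ± 0.41 for eIF2A. DESeq2 called the first and second of these higher, at adjusted p of 0.0202 and 0.0296. Against bam RNAi the highest were 1.28 ± 0.60 for eEF1alpha2 and 0.66 ± 0.41 for each of eIF2A and eIF2D, an eIF2-independent initiation factor. At the low end eIF4B, with its wide error, had values of -1.80 ± 1.62 and -2.85 ± 1.61. Scaling by total counts moved the median of all genes to -0.48 and -0.37 in these comparisons and that of the factors to -0.49 and -0.30. A scaling shifts all genes of a comparison by about the same amount.

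**Figure D3:**
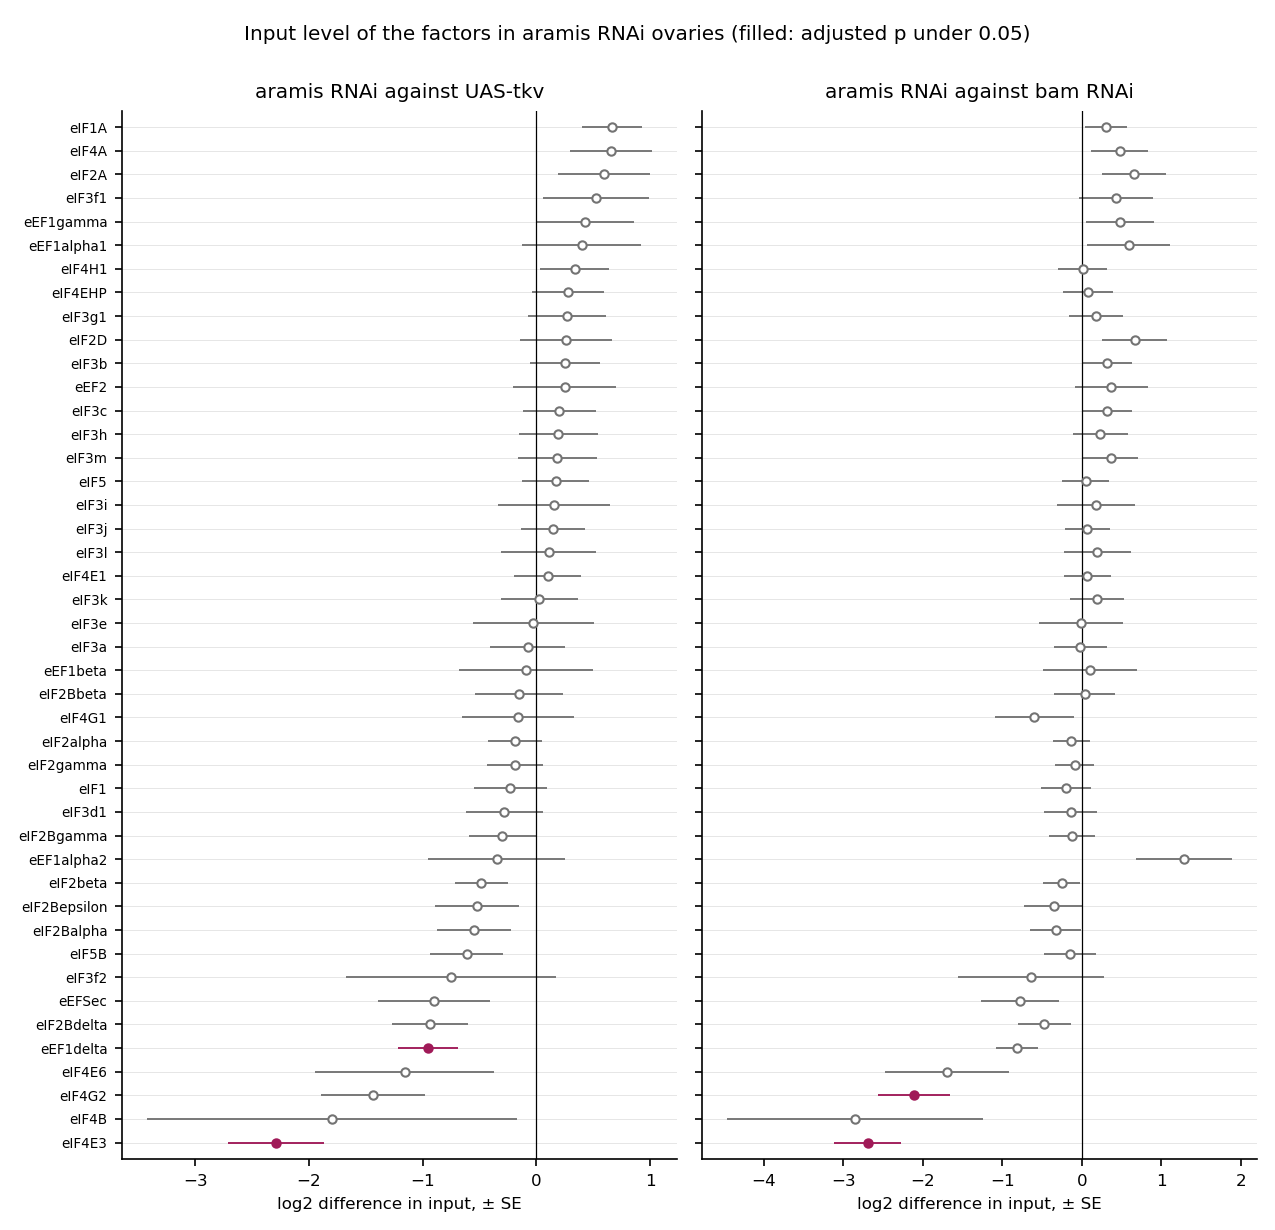
Log2 difference in input of the 44 factors tested, in aramis RNAi against UAS-tkv (left) and against bam RNAi (right), with bars for the standard error and filled points for an adjusted p under 0.05. eIF4E3 is filled in both panels, at -2.29 and -2.70, while eEF1delta is filled on the left and eIF4G2 on the right.

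Between the controls, bam RNAi and UAS-tkv, no factor was called in input, where 0.0308% of all genes were called higher and 0.205% lower. At an unadjusted p under 0.05 there was 1 factor against 5.8% of all genes, and DESeq2 called none, against 1.14% of all genes. That factor was eEF1alpha2, at 5.203 and 4.002 CPM in bam RNAi and 13.6 and 15.0 in UAS-tkv (log2 -1.63 ± 0.60, edgeR adjusted p = 0.74). The next lowest were eIF5B, the subunit joining GTPase, at -0.47 ± 0.32 and eIF2Bdelta at -0.46 ± 0.33. The highest were eIF4B at 1.05 ± 1.55, eIF4G2 at 0.68 ± 0.45 and eIF4E6 at 0.54 ± 0.76. With the replicate number as a block eEF1alpha2 was called, with no share of all genes set beside it.

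Polysome and input RNA of the same genotype were compared next, which asks which factor mRNAs are over- or underrepresented among ribosome-loaded mRNAs. Input was a reserved part of the polysome lysate, though the labels do not say whether equal replicate numbers mark the same lysate. The libraries were not paired in the test reported, and a fit with genotype and replicate number as a block is given beside it. In UAS-tkv no factor rose and 2 of 44 fell, where 1.97% of all genes were called higher and 6.14% lower. These were eIF4G2, at 119 and 93.6 CPM in input and 9.27 and 10.3 in polysomes, and eIF4H1 (FBgn0262734, dm6 chromosome X, 16448665 to 16454972), at 238 and 219 CPM in input and 46.3 and 52.5 in polysomes. The fall was 10.9-fold for eIF4G2 (log2 -3.44 ± 0.47) and 4.63-fold for eIF4H1 (-2.21 ± 0.31), each at an edgeR adjusted p of 0.00438. Both calls held without any 1 of the 12 libraries and under each of the 7 other settings tried, the block among them. DESeq2 called 4 further factors (16.6% of all genes called), eIF4A, eIF4EHP and eEF1alpha2 lower and eEF1delta higher.

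In bam RNAi no factor rose and 2 of 44 fell, where 0.0% of all genes were called higher and 0.482% lower. eIF4EHP (FBgn0053100, dm6 chromosome 3R, 24063077 to 24108960), a cap-binding protein that cannot recruit eIF4G and represses mRNAs such as caudal in the embryo, stood at 86.7 and 62.0 CPM in input and 14.7 and 26.6 in polysomes. It fell 3.56-fold (log2 -1.83 ± 0.32, edgeR adjusted p = 0.0407). eIF4H1 stood at 305 and 266 CPM in input and 92.2 and 88.0 in polysomes and fell 3.17-fold (-1.67 ± 0.31, adjusted p = 0.0485). In both cases the input and polysome values did not overlap, but the calls were close to the threshold. They were kept in 4 and 6 of the 12 fits with a library left out, with adjusted p of up to 0.385 and 0.409, and in 4 and 2 of the 7 other settings. With the block neither was called and eIF4G2 was the 1 call. DESeq2 called 8 factors (14.5% of all genes called), with eIF2Balpha and eIF2Bbeta higher and eIF4EHP, eIF4H1, eIF4A, eIF4G1, eIF4G2 and eEF1alpha1 lower. The polysome replicates of bam RNAi differ most in ribosomal protein counts, as given above. The median log2 difference of the factors was -0.37 without bam RNAi polysome replicate 1 and -0.24 without replicate 2.

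The scaffolds, the helicase and its cofactors (eIF4G1, eIF4G2, eIF4A, eIF4B and eIF4H1) were all below 0 in both controls under each of the 4 scalings, with medians of -1.57 (UAS-tkv) and -1.82 (bam RNAi), beside -0.01 and -0.15 for all genes. The values of eIF4A were -0.82 ± 0.36 and -1.17 ± 0.36 and those of eIF4G1 -1.31 ± 0.49 and -1.82 ± 0.49, none past the edgeR threshold. eIF4B had the lowest value of all in bam RNAi, at -3.92 ± 1.67. The eIF4E family was not uniform, with 3 of 4 above 0 in UAS-tkv and 1 of 4 in bam RNAi. The 5 eIF2B subunits were all above 0 in both controls, with medians of 0.66 and 0.82 and the highest value in eIF2Balpha (0.79 ± 0.32 and 1.25 ± 0.32). The bam RNAi values of eIF2B rested largely on polysome replicate 1. eIF2Bbeta stood at 221 and 82.4 CPM in its polysomes and 57.6 and 83.2 in input, and eIF2Bdelta at 127 and 62.6 in polysomes and 67.1 and 69.6 in input. Without that library 4 of 5 were above 0, with a median of 0.22. In UAS-tkv eIF2Bdelta, at 0.02, fell below 0 with total counts or with a scaling that left out ribosomal protein genes. The highest values in UAS-tkv were 0.94 ± 0.76 for eIF4E6, 0.88 ± 0.49 for eEFSec and 0.86 ± 0.26 for eEF1delta, and in bam RNAi 1.48 ± 0.90 for eIF3f2 beside 1.10 ± 0.38 for eIF2Bbeta. At the low end in UAS-tkv stood eEF1alpha2 (-1.78 ± 0.61) as well. Of the 13 core eIF3 subunits 6 were above 0 in each control, with medians of 0.00 and -0.32. In bam RNAi this too depended on the polysome library. Without replicate 1 all 13 were below 0, with a median of -0.56, and without replicate 2 the median was -0.07, with 7 below 0.

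In aramis RNAi no factor was called, where 0.0% of all genes were called higher and 0.0103% lower. The values were mostly negative all the same. At an unadjusted p under 0.05, 1 factor was higher and 14 were lower, 15 of 44 beside 5.76% of all genes. DESeq2, which gave an adjusted p for 29 of the 44, called 7 lower and none higher, beside 4.02% of the 1243 genes with a value. The median over the factors was -0.48, against 0.00 for all genes, and 33 of 44 were below 0 beside 49.9% of all genes. The lowest values were in the exchange complex, at -1.62 ± 0.59 for eEF1beta and -1.51 ± 0.43 for eEF1gamma, followed by eIF2A at -1.50 ± 0.41. eEF1beta stood at 1163 and 1062 CPM in input and 296 and 428 in polysomes. eEF1alpha1 stood at 25220 and 25480 CPM in input and 9297 and 12030 in polysomes (-1.25 ± 0.52). All 13 core eIF3 subunits were below 0, from -0.10 to -1.39 for eIF3m, with a median of -0.76. In bam RNAi the median was -0.56 without its polysome replicate 1 and -0.07 without replicate 2. eIF3m stood at 460 and 485 CPM in input and 155 and 207 in polysomes, without overlap, whereas in UAS-tkv it stood at 404 and 428 in input and 394 and 317 in polysomes. Here eEF1delta stood apart from its complex, at 196 and 212 CPM in input and 282 and 335 in polysomes (0.60 ± 0.26). The highest values were those of the low paralogs eIF4E6 (0.89 ± 0.80) and eIF3f2 (0.67 ± 0.93).

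**Figure D4:**
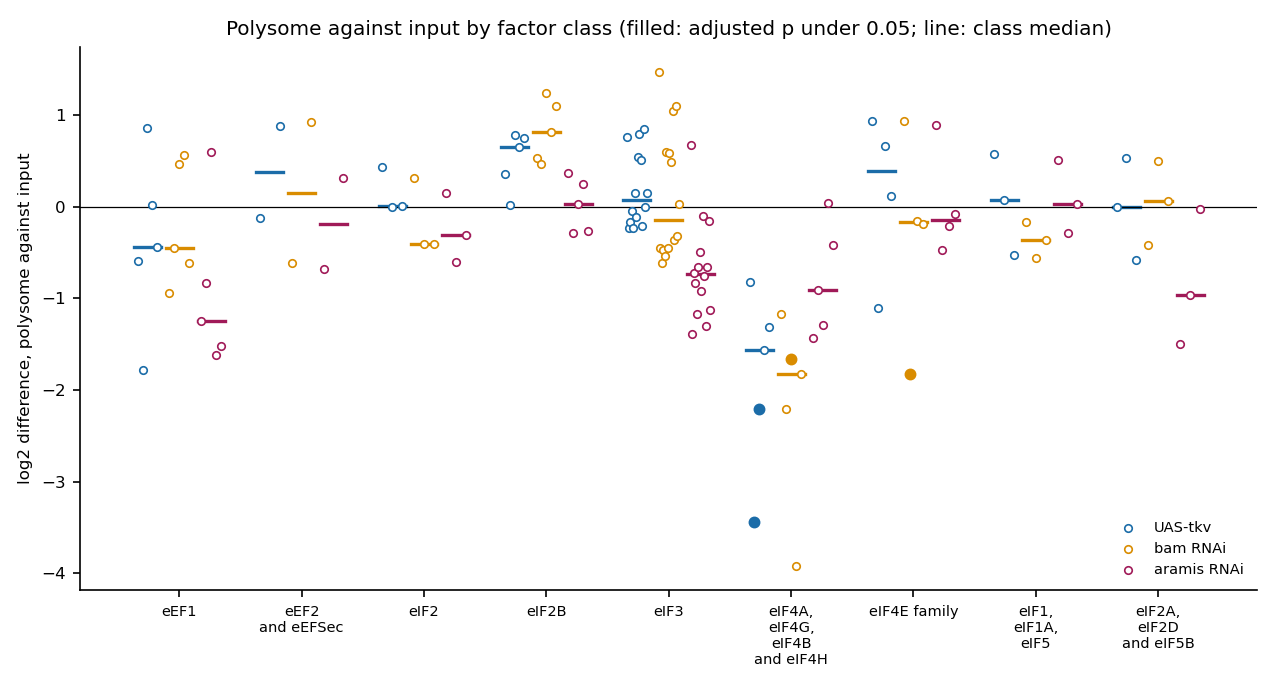
Log2 difference of polysome against input for the 44 factors tested, by class (x axis) and genotype (colour), with filled points for an adjusted p under 0.05 and lines for class medians. The eIF4A, eIF4G, eIF4B and eIF4H class lies below 0 in UAS-tkv and bam RNAi (medians -1.57 and -1.82), eIF2B above 0 (0.66 and 0.82), and the eIF3 median is -0.74 in aramis RNAi beside 0.07 and -0.14.

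Translational efficiency (TE), here a gene's polysome level over its input level, was compared between genotypes as the interaction of fraction and genotype. No factor was called by edgeR in any of the 3 comparisons. For aramis RNAi against UAS-tkv 0.0103% of all genes were called higher and 0.0% lower. Here 7 factors had an unadjusted p under 0.05, 1 higher and 6 lower, against 7.51% of all genes. The likelihood ratio test of DESeq2 called 10 of the 41 factors with an adjusted p, 1 higher and 9 lower, against 6.64% of all genes. For aramis RNAi against bam RNAi 0.0% of all genes were called higher and 0.0% lower, 9 factors had an unadjusted p under 0.05 (1 higher and 8 lower) against 3.15% of all genes, and DESeq2 called none, against 0.0%. For bam RNAi against UAS-tkv 0.0103% of all genes were called higher and 0.0% lower, no factor had an unadjusted p under 0.05 against 2.22% of all genes, and DESeq2 called none, against 0.0308%. The median standard error of a factor's TE difference was 0.49 on the log2 scale.

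In aramis RNAi the TE values of the factors were mostly negative. The median over the 44 was -0.56 against UAS-tkv and -0.29 against bam RNAi, beside 0.05 and 0.17 for all genes, and 35 and 32 factors were below 0 where 47.8% and 41.3% of all genes were. Between the controls the median was -0.15, beside -0.01. The comparisons with aramis RNAi share its libraries and are not independent. All 13 core eIF3 subunits were below 0 against UAS-tkv, from -0.15 for eIF3j, a loosely held subunit, to -1.50 ± 0.75 for eIF3e, and 12 of 13 against bam RNAi, with medians of -0.94 and -0.94. Over the 20 settings tried, 12 or 13 subunits were below 0 against UAS-tkv and 10 to 12 against bam RNAi, with medians between -1.21 and -0.59 and between -1.21 and -0.29. The median of -0.29 against bam RNAi was that without bam RNAi polysome replicate 1, and without replicate 2 it was -1.19. Between bam RNAi and UAS-tkv 9 of 13 were below 0, with a median of -0.22, and over the same settings the number ran from 4 to 13 and the median from -0.72 to 0.13. Without bam RNAi polysome replicate 1 all 13 were below 0 there, and without replicate 2 only 4 of the 13 were. Low eIF3 values were therefore not shown to be particular to aramis RNAi. In CPM, eIF3e stood at 586 and 464 in input and 1063 and 824 in polysomes of UAS-tkv, and at 523 and 507 in input and 277 and 378 in polysomes of aramis RNAi. In bam RNAi it stood at 449.7 and 588 in input and at 1819 and 403 in polysomes, so a single library set its level there. eIF3f1 showed the same in UAS-tkv, with 433 and 373 in input and 587 and 588 in polysomes, against 629 and 532 in input and 249 and 365 in polysomes of aramis RNAi (TE -1.47 ± 0.66). The subunits that DESeq2 called lower against UAS-tkv were eIF3e, eIF3f1, eIF3g1, eIF3i and eIF3m, with eEF1beta, eIF2A, eIF2Bbeta and eIF2D beside them.

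The lowest TE differences from UAS-tkv were those of eEF1beta (-1.65 ± 0.84), eIF2A (-1.50 ± 0.57) and eIF3e, and from bam RNAi those of eEF1beta (-2.19 ± 0.84), eIF3i (-1.81 ± 0.70) and eIF3e (-1.75 ± 0.75). The values against bam RNAi were set by polysome replicate 1, where eEF1beta stood at 2584 CPM beside 492 in replicate 2 and eIF3i at 1175 beside 283. Without that library they were -0.54 for eEF1beta, -0.44 for eIF3i and -0.29 for eIF3e. The scaffold paralog eIF4G2 went the other way. Its TE difference from UAS-tkv was 2.54 ± 0.67 (edgeR adjusted p = 0.652, DESeq2 adjusted p = 0.000119). As listed above, its polysome level was 9.27 and 10.3 CPM in UAS-tkv and 26.03 and 15.2 CPM in aramis RNAi, and its input level was the lower in aramis RNAi. Next were eIF4B (1.61 ± 2.34) and eEF1alpha2 (0.94 ± 0.86), and against bam RNAi eIF4B (3.96 ± 2.39), eIF4G1 (1.41 ± 0.70) and eIF4EHP (1.36 ± 0.45). eIF4G1, eIF4G2, eIF4B and eIF4H1 were above 0 in both comparisons, while eIF4A was at -0.61 ± 0.51 and -0.26 ± 0.51. Between the controls the values ran from -2.35 ± 2.32 for eIF4B, -0.82 ± 0.57 for eIF4E3 and -0.75 ± 0.45 for eIF1 to 0.71 ± 1.27 for eIF3f2, 1.23 ± 0.66 for eIF4G2 and 1.33 ± 0.87 for eEF1alpha2. The share of counts from ribosomal protein genes was lower in aramis RNAi polysomes than in UAS-tkv polysomes, as given above, and its part in these values was not tested. The germline marker sum was also lower, at 93.2 to 102 TPM in aramis RNAi polysomes beside 289.5 to 379 in UAS-tkv polysomes. In bulk RNA of whole ovaries, a different mix of cells and a different ribosome load within cells cannot be told apart. With total counts in place of TMM scaling, the median of all genes for TE against UAS-tkv became 0.40 and that of the factors -0.22. With genotype and replicate number as a block no factor was called for TE, as without it. TE differences of aramis RNAi also rose with exon length. Over the 9542 genes with a length, Spearman's rho was 0.469 against UAS-tkv and 0.329 against bam RNAi, beside 0.38 and 0.399 over the 44 factors. The part of length in the TE values of the factors was not tested.

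Factor genes with more exon sequence, taken as the union of a gene's exons, had lower polysome values in the controls. Among the factors low in polysomes of the controls, exon sequence was 9097 bases for eIF4G2, 6565 for eIF4G1, 6418 for eIF4EHP and 4430 for eIF4H1, where the median was 1777 bases over the 44 factors and 2000 over all genes tested. Across the 44 factors, Spearman's rho between exon length and the log2 difference of polysome against input was -0.665 for UAS-tkv, -0.606 for bam RNAi and -0.235 for aramis RNAi. The factors share libraries within each value, and no p is given. The same relation was seen over the 9542 genes with a length, at -0.571, -0.461 and -0.305, so it is not particular to the factors. Gene span, introns included, gave -0.694, -0.693 and -0.0944 over the factors and -0.545, -0.445 and -0.287 over all genes. These values therefore do not single out the length of the mRNA. Exceptions to length were eIF4B, which at 1922 bases was among the lowest in both controls, eEF1alpha2, which at 2656 bases was the third lowest in UAS-tkv, and eIF5B, which at 4410 bases stood at -0.58 ± 0.32 in UAS-tkv and 0.06 ± 0.32 in bam RNAi.

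**Figure D5:**
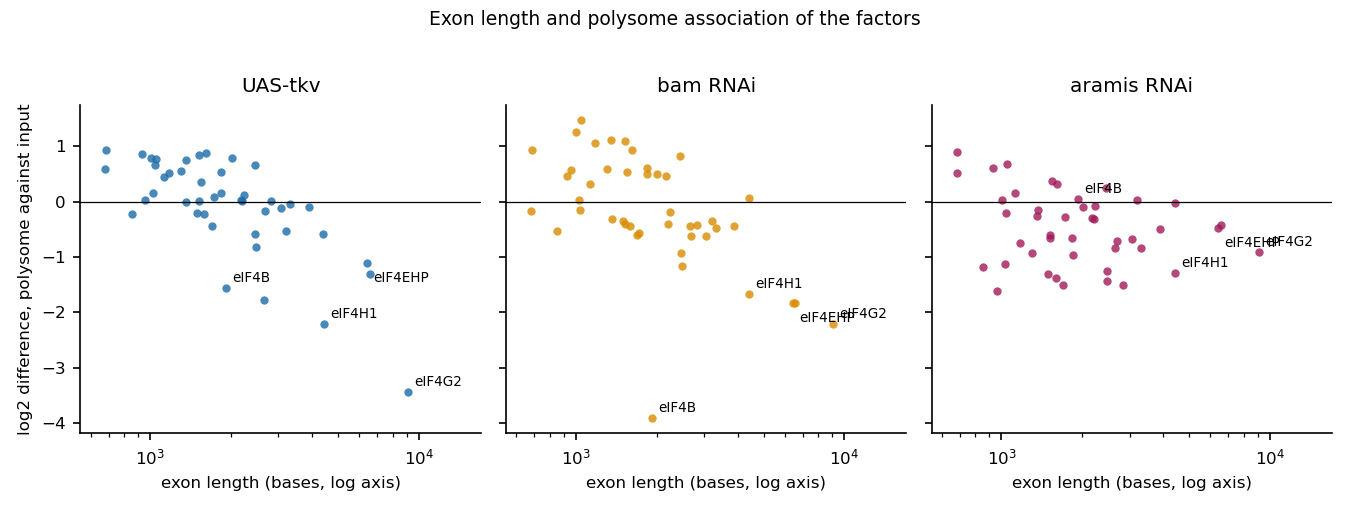
Exon length in bases (log axis) against the log2 difference of polysome against input, for the 44 factors tested, with a panel for each genotype and a point for each factor. In UAS-tkv and bam RNAi the points fall with length (rho -0.665 and -0.606), and in aramis RNAi rho is -0.235. The lowest point is eIF4G2, at the right, in UAS-tkv and eIF4B, at 1922 bases, in bam RNAi.

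Regulators and partners of the factors were followed through a list of 26 genes, of which 22 were found and 21 tested. The gene found but not tested, cup, had 0 counts in every library. In aramis RNAi input against UAS-tkv, 2 rose and 1 fell of the 21 tested, beside 10.1% and 8.73% of all genes. Against bam RNAi none of the list was called (0.944% of all genes higher and 2.44% lower), with edgeR adjusted p of 0.146 for Thor, 0.287 for mxt and 0.069 for Pdcd4. Thor, the eIF4E-binding repressor (4E-BP), rose against UAS-tkv by 2.42 ± 0.43 on the log2 scale of the TMM-scaled counts (edgeR adjusted p = 0.0055). In TPM it stood at 334 and 461 in UAS-tkv input, 663 and 1015 in bam RNAi input and 1438 and 1573 in aramis RNAi input. TPM is scaled without TMM, and the rise in TPM was smaller than the log2 difference gives. The eIF4E-binding protein gene mxt rose by 1.15 ± 0.35 (adjusted p = 0.0434), and Pdcd4, whose mammalian counterpart inhibits eIF4A, fell by 0.87 ± 0.27 (adjusted p = 0.0473). For mxt too the rise was smaller in TPM, from 62.1 and 63.1 in UAS-tkv input to 106.9 and 90.6 in aramis RNAi input. In polysomes of UAS-tkv against input, 1 rose and 5 fell, beside 1.97% and 6.14% of all genes. The log2 differences were -2.31 ± 0.32 for the cap-associated larp, -2.25 ± 0.40 for the poly(A)-binding protein gene pAbp, -1.99 ± 0.38 for its antagonist Paip2, -1.82 ± 0.27 for Pdcd4 and -1.35 ± 0.33 for the helicase gene bel. DENR, a reinitiation factor, rose by 1.25 ± 0.31. In bam RNAi polysomes 2 fell, larp (-2.02 ± 0.32) and pAbp (-2.32 ± 0.40), beside 0.482% of all genes. The gene eIF6, a factor of large subunit assembly that the rule leaves out, had input differences of -0.65 ± 0.29 from UAS-tkv and -0.44 ± 0.29 from bam RNAi, not called.

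Counts of a few factors could include reads of a neighbour. On the same strand, eIF5 shares 80.8% of its exon length with CG46312, which had no match among the counted genes. Further, eIF2gamma shares 15.98% with Su(var)3-9, eIF4G2 shares 8.56% with CG33111 and eIF4EHP shares 6.97% with Syx1A. Antisense overlap reached 16.8% of exon length for eIF3h (with senju) and 12.6% for eIF2alpha (with rngo). The strand setting of the counts was not given in the sources used here, so these values carry that doubt. Of the factors named in this paragraph, edgeR called eIF4G2 and eIF4EHP.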

How the data were processed

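Polysome-seq libraries of ovaries were poly(A)-selected and directional. Per the labels, the authors aligned reads to dm6 with HISAT2 version 2.1.0 and counted them by gene using featureCounts 1.4.6. The study's methods name STAR for mapping and counting instead. Which of them made these files was not settled. Deposited values are whole read counts per gene. The annotation release, strand setting and treatment of shared reads were not given in the sources used here.

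Counts were fitted in R 4.3.3 with edgeR 4.0.16 as 6 group means over the 12 libraries, with TMM scaling and a quasi-likelihood test. filterByExpr kept 9745 genes and removed 7278. The common dispersion was 0.178 with 6 residual degrees of freedom. CPM used TMM-scaled library sizes. TPM used the union exon length of Ensembl's BDGP6 annotation, on dm6 coordinates, found for 16648 identifiers, and the other 375 held 3.18% to 4.32% of counts. DESeq2 1.42.0 was an alternative, and the scripts were tested on simulated data. Alternatives changed the scaling, the filter, the test, the libraries fitted, the replicate block and the call rule, or left out each library in turn. Reads carried no molecular identifiers, so floors cover counting error alone.

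Named genes were every called factor, the most abundant of each class, members of factors with several genes, the paralogs, and the 3 highest and 3 lowest values per comparison. Of the regulators, those called and eIF6 were named. The members and lists were chosen with earlier results of these data known. The gene eEF5 was not analysed here, as its identifier had no match, and Tor, S6k, vas, nos, wupA and CG8005 were not matched in the lists.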

Additional observations from a re-analysis of the deposited data

How the results depend on the processing

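The number of factors called in input, 2 for aramis RNAi against UAS-tkv, was 5 with total counts only, 5 with DESeq2, 13 with only the 4 libraries of the comparison, 11 with the replicate block and 1 at the study's thresholds (input changes above 4-fold that keep an adjusted p under 0.05, and TE changes above 2-fold judged by the p before adjustment). The 2 calls against bam RNAi became 4 with only those libraries. In polysomes of UAS-tkv against input the 2 calls became 4 with no filter on low counts and 6 with DESeq2. In bam RNAi the 2 became 1 with DESeq2 size factors, 1 without ribosomal protein genes in the scaling, 1 with the replicate block, 0 with total counts only, 0 with only the libraries of the comparison, 8 with no filter and 8 with DESeq2. In aramis RNAi the 0 became 3 with no filter and 7 with DESeq2. For TE against UAS-tkv the 0 became 1 with no filter, 10 with DESeq2 and 7 at the study's thresholds, and against bam RNAi 9 at those thresholds. With 1 library left out, the count ran from 0 to 5 and from 0 to 3 in the inputs of aramis RNAi against UAS-tkv and bam RNAi, from 2 to 6 and from 0 to 14 in polysomes of UAS-tkv and bam RNAi, and from 0 to 10 for TE against bam RNAi. It was 0 throughout for the other comparisons. A lone sample left in a group was taken to vary like the other groups. The cause of these moves was not tested. In aramis RNAi input against UAS-tkv, the share of all genes called also rose. It was 27.4% with DESeq2, 48.0% with only the 4 libraries of the comparison and 42.8% with the replicate block. For the other alternatives, except DESeq2, no share of all genes was set beside the count. Those counts therefore do not show whether factors were called more often than other genes.

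Input was part of the polysome lysate, but the labels do not say that equal numbers mark 1 lysate. The deviations of libraries with the same number correlated across genes at 0.54 in UAS-tkv, 0.392 in aramis RNAi and -0.00288 in bam RNAi. With the replicate block, the calls in polysomes of UAS-tkv and aramis RNAi and for TE were as without it. In bam RNAi against UAS-tkv input 1 factor (eEF1alpha2) was then called, with no share of all genes set beside it. The median log2 difference of the 44 factors moved by more than the replicate spread in these cases. With total counts only it was -0.49 and -0.30 in aramis RNAi input against UAS-tkv and bam RNAi, -0.094 and -0.24 in polysomes of UAS-tkv and aramis RNAi, and -0.22 and -0.012 for TE of aramis RNAi against UAS-tkv and bam RNAi. With no filter it was -0.016 in aramis RNAi input against UAS-tkv, -0.37 in aramis RNAi polysomes and -0.40 for TE against UAS-tkv. With DESeq2 size factors and with DESeq2 it was 0.052 and 0.052 in UAS-tkv polysomes, and -0.44 and -0.44 in aramis RNAi polysomes. It was -0.11 in aramis RNAi input against UAS-tkv without ribosomal protein genes in the scaling, and -0.52 for TE against UAS-tkv with the replicate block. With 1 library left out it ran from -0.15 to -0.027 and from -0.093 to 0.15 in aramis RNAi input against UAS-tkv and bam RNAi, from -0.088 to 0.14 in polysomes of UAS-tkv, from -0.37 to -0.065 in those of bam RNAi and from -0.60 to -0.44 in those of aramis RNAi. For TE it ran from -0.65 to -0.35 in aramis RNAi and from -0.42 to 0.062 in bam RNAi, each against UAS-tkv. No called factor changed sign under any of these settings. With 2 replicates a group, the median standard error of a factor was 0.35 on the log2 scale for input and 0.49 for TE.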
